A study of Homo sapiens with 5 samples.

Results

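ID1, ID2, ID3, SMAD6, SMAD7, BMP2, BMP4, TGFB1, TGFB2 and BAMBI are genes of TGF-beta and BMP signalling, and their messenger RNA levels were followed on 5 Affymetrix arrays of PC-3, a cell line from a human prostate cancer. The 10 genes were chosen by name, with earlier results of these arrays known, and every probe set that carries only the symbol of 1 of them was used. These are 20 of the 41091 probe sets with a single gene symbol, which stand for 10 of 19775 genes. A probe set is the group of short probes that reports 1 transcript, and its level is given throughout as the log2 of its RMA intensity, so that a difference of 1 is a 2-fold difference. A level of 6 was used as the lower limit of usable signal.

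PC-3 is an androgen-independent line derived from a bone metastasis. All 5 arrays held PC-3 cells with no drug or other treatment stated in the labels. The array called 2D held cells from ordinary flat culture and the array called spheroid held cells from spheroid culture, neither with a hairpin stated. The array called shGFP held PC-3 cells that express a control short hairpin RNA against GFP. Those labelled shTRIB1-1 and shTRIB1-2 held PC-3 cells that express 1 of 2 different hairpins against TRIB1, a pseudokinase that guides proteins to the ubiquitin ligase COP1. No source used here gives the promoter, vector or clonality of the hairpin lines. The labels describe 1 growth protocol, in dishes of 10 cm, for every sample, the spheroids included. Each group is 1 array, except that the 2 hairpins are both labelled as TRIB1 depletion, and nothing in the labels says that any 2 arrays came from separate cultures.

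TGF-beta and BMP ligands bind pairs of receptor kinases at the cell surface, which phosphorylate SMAD proteins that then enter the nucleus and switch target genes. Among the first targets are the pathway's own brakes. SMAD6 and SMAD7 are inhibitory SMADs that block the receptors, and BAMBI is a decoy receptor that lacks the kinase. ID1, ID2 and ID3 are classic BMP targets that bind E proteins and keep them from DNA, which holds back differentiation. In prostate epithelium TGF-beta restrains growth, and carcinoma cells often escape that restraint while still making the ligand.

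The identity of the cells and the state of the arrays were checked first. The 4 epithelial markers KRT8, KRT18, KRT19 and EPCAM were at levels of 9.39 to 13.19 on all arrays. Of 4 markers of prostate luminal cells and the androgen receptor, 2 had a probe set. KLK2 was at 4.27 to 4.56, and KLK3 was at 6.90 on every array, with a range of 0. Whether so constant a level above 6 is expression of KLK3 was not tested. Of 8 measured markers of blood, endothelial and stromal cells, 6 were below 6 on every array, while PECAM1 reached 9.53 on the spheroid array and ACTA2 reached 7.07 on the array labelled shTRIB1-1. The main TRIB1 probe set was at 11.97 on shGFP, 11.91 on the array labelled shTRIB1-1 and 11.76 on that labelled shTRIB1-2, so these arrays do not show a depleted TRIB1 messenger RNA and the hairpin arrays are called by their labels. On 2D it was at 11.04 and on spheroid at 11.23. The actin control's ratio of 5′ signal over 3′ signal lay between 0.436 and 0.445 on the 3 hairpin-line arrays, against 0.184 on 2D and 0.131 on spheroid. The ratio for GAPDH was 0.929 to 0.944 on the hairpin-line arrays, 0.895 on 2D and 0.763 on spheroid. Both ratios were thus lowest on spheroid, so they differ between spheroid and 2D as well as between the hairpin-line arrays and the others.

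Of the 2 transforming growth factor genes among the 10, TGFB2 had usable signal on every array and TGFB1 on none. TGFB2 encodes TGF-beta 2, a ligand of the branch that acts through SMAD2 and SMAD3. Its main probe set was at 9.05 on shGFP, 10.36 on shTRIB1-1, 9.18 on shTRIB1-2, 7.85 on 2D and 8.19 on spheroid. The array labelled shTRIB1-1 was the highest, the other 2 hairpin-line arrays were close to each other, and the arrays without a hairpin were the lowest. Of the 5 TGFB2 probe sets, 3 were above 6 on every array. They put the array labelled shTRIB1-1 above that labelled shTRIB1-2 by 1.18, 1.04 and 1.14, and the shGFP array above the 2D array by 1.19, 1.55 and 1.06. Between spheroid and 2D they did not share a direction, with differences of 0.34, -0.42 and -0.10. TGFB1, which encodes the ligand TGF-beta 1, stayed under 6 on every array with both of its probe sets, from 5.59 to 5.98 with the main one, and gives no usable comparison. TGFB3, which encodes TGF-beta 3 and is not among the 10, was at 5.94 on shGFP, 6.50 on shTRIB1-1, 6.34 on shTRIB1-2, 5.70 on 2D and 5.84 on spheroid.

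Of the BMP ligands, BMP4 was measurable and BMP2 was not. BMP4 was at 6.78 on shGFP, 7.25 on shTRIB1-1, 7.91 on shTRIB1-2, 6.35 on 2D and 6.87 on spheroid, all from its only probe set. The array labelled shTRIB1-2 was the highest here, which is not the array on which TGFB2 was highest. The 2 probe sets of BMP2 lay between 2.75 and 3.15 on all arrays, far under the usable limit.

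BAMBI, the decoy receptor, was at 8.10 on shGFP, 8.99 on shTRIB1-1, 8.78 on shTRIB1-2, 7.46 on 2D and 9.04 on spheroid. The spheroid array and both arrays with hairpins against TRIB1 stood above their own control array, and the 2D array was the lowest of all.

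**Figure D1:**
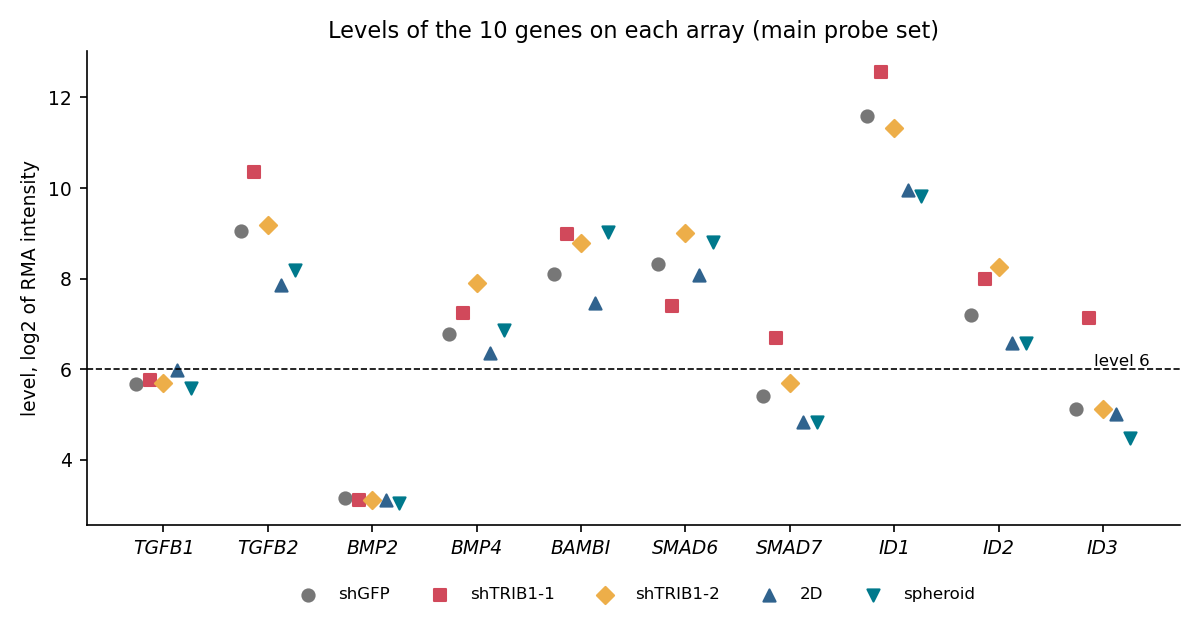
Level (log2 of RMA intensity, vertical axis) of each of the 10 genes (horizontal axis) on the 5 arrays, from the main probe set of each gene; each symbol is 1 array and the dashed line is the usable limit of 6. TGFB1 and BMP2 lie under the line on every array, ID3 and SMAD7 cross it on the array labelled shTRIB1-1 alone, and ID1 is far higher on the 3 hairpin-line arrays than on the 2D and spheroid arrays.

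The 2 inhibitory SMAD genes differed from shGFP in opposite directions with shTRIB1-1, and both were above it with shTRIB1-2. SMAD6, which mainly restrains BMP receptors, was at 8.33 on shGFP, 7.39 on shTRIB1-1, 9.01 on shTRIB1-2, 8.09 on 2D and 8.82 on spheroid. Its lowest value was on the array labelled shTRIB1-1, and the 2 hairpin arrays lay on either side of the shGFP array. The other 3 SMAD6 probe sets stayed between 4.48 and 5.62, so the SMAD6 values rest on 1 probe set of 4. SMAD7, which restrains TGF-beta receptors and BMP receptors alike, was at 5.40 on shGFP, 6.69 on shTRIB1-1, 5.69 on shTRIB1-2, 4.82 on 2D and 4.84 on spheroid. It was above the usable limit only on the array labelled shTRIB1-1, so the size of its differences depends on signal near background.

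ID1 had the widest range of the 10 main probe sets, 2.73 over the 5 arrays, a 6.62-fold span. It was at 11.59 on shGFP, 12.55 on shTRIB1-1, 11.32 on shTRIB1-2, 9.96 on 2D and 9.83 on spheroid. The 3 hairpin-line arrays were all higher than the other 2, and the 2D and spheroid arrays were near each other. ID2 was at 7.20 on shGFP, 7.998 on shTRIB1-1, 8.26 on shTRIB1-2, 6.58 on 2D and 6.59 on spheroid. Both arrays with hairpins against TRIB1 were above shGFP, and the second ID2 probe set gave the same order of the 3 hairpin-line arrays with differences from shGFP of 0.64 and 0.97. ID3 was at 5.13 on shGFP, 7.12 on shTRIB1-1, 5.13 on shTRIB1-2, 5.02 on 2D and 4.48 on spheroid, so it had usable signal on the array labelled shTRIB1-1 alone and had to be high there to be counted at all.

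**Figure D2:**
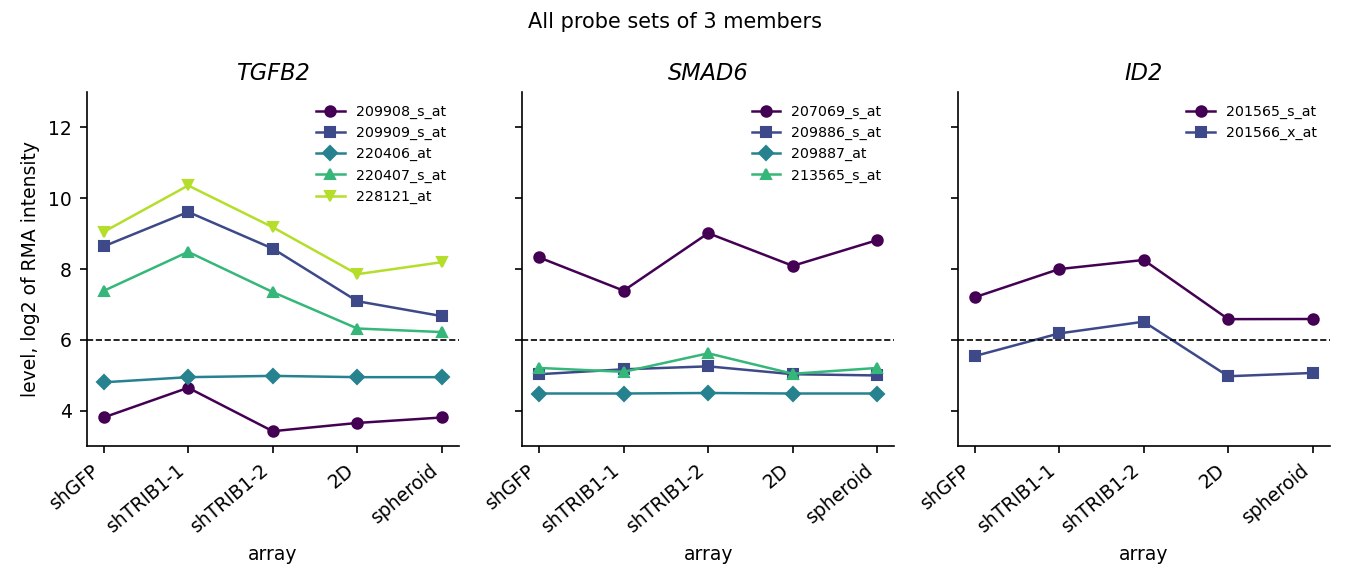
Level (log2 of RMA intensity, vertical axis) of every probe set of TGFB2, SMAD6 and ID2 on the 5 arrays (horizontal axis); each line is 1 probe set and joins arrays only to guide the eye, and the dashed line is the usable limit of 6. The 3 TGFB2 probe sets above the line are all highest on the array labelled shTRIB1-1, the 2 ID2 probe sets run in parallel, and SMAD6 has 1 probe set above the line.

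The promoters of 4 of these genes are shown because their genes stood out in the arrays: ID1 and TGFB2 as the pair that was high on the hairpin-line arrays and highest with shTRIB1-1, SMAD6 as the gene that was lowest with shTRIB1-1, and BAMBI as the gene that was higher on the spheroid array. RefSeq start sites of GRCh38.p14 gave windows for 9 of the 10 genes, 13 windows in all, BMP4 and SMAD7 having 3 each. The 250 bases before each start are printed in lower case, 5′ to 3′, with matches in capitals to the palindromic SMAD-binding element GTCTAGAC, to the GC-rich element GGCGCC or to the TATA box TATAAA. Both strands were searched, and the first 2 motifs read alike on either strand. The ID1 window is chr20:31605039-31605288 on the plus strand, that of TGFB2 is chr1:218345086-218345335 on the plus strand, that of SMAD6 is chr15:66701986-66702235 on the plus strand and that of BAMBI is chr10:28677271-28677520 on the plus strand.
ID1: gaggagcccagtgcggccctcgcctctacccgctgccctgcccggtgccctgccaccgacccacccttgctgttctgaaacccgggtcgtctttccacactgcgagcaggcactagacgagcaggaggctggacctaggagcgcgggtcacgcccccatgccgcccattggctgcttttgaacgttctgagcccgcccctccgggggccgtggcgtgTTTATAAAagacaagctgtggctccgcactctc
TGFB2: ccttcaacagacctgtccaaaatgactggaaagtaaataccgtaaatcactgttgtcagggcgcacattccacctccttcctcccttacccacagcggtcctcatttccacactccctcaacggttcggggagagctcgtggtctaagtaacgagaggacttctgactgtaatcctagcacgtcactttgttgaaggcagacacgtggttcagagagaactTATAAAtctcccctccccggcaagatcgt
SMAD6: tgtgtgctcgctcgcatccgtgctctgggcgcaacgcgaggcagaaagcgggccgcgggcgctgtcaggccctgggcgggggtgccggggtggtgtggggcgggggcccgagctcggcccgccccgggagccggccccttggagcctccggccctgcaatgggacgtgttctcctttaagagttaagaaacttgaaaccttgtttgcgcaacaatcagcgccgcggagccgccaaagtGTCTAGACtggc
BAMBI: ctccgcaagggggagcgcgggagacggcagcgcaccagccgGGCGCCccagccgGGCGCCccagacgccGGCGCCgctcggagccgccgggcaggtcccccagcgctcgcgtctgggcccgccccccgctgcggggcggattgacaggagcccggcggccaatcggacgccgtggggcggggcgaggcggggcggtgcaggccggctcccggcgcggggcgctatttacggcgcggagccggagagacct
The SMAD6 window holds GTCTAGAC from 12 to 5 bases before the start, a motif found in 64 of 35116 such windows, or 0.182%. BAMBI holds GGCGCC at 3 places between 209 and 176 bases before its start, and so does BMP4 at 1 place, against 16.4% of all windows with at least 1. TATAAA occurs in ID1, where matches on the 2 strands overlap between 33 and 26 bases before the start, in TGFB2 from 29 to 24 bases before it and in 1 of the 3 SMAD7 windows from 35 to 30 bases before it, against 10.7% of all windows. A match is a stretch of letters, and none of these arrays measured binding.

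The spheroid and 2D arrays were compared to see which of these genes differ with growth in 3 dimensions. BAMBI was higher by 1.58 on the spheroid array, a 3.00-fold difference, and was the 1 gene of the 6 above the usable limit that differed at least 2-fold. Among all 10570 genes tested 5.05% were at least 2-fold higher and 5.23% at least 2-fold lower. SMAD6 was higher by 0.73 and BMP4 by 0.51, while ID1 differed by -0.13 and ID2 by 0.00. The median over the 6 genes was 0.43, against -0.01 for all genes tested. Each condition had 1 array, so none of these differences has a replicate check. The 10 genes of the G2 and M phase of the cell cycle were all lower in the spheroid array by at least 2-fold, with a median of -3.11. The part of fewer dividing cells in the differences of the pathway genes was not tested, and a bulk array cannot tell fewer cells of a state from less RNA per cell. The summed intensity of the blood, endothelial and stromal markers was 392 on 2D and 954 on spheroid, led by PECAM1, while the endothelial markers CDH5 (3.32 to 3.48) and VWF (5.08 to 5.45) stayed near background on every array. The 4 epithelial markers were all lower on spheroid than on 2D, with differences from -0.37 to -0.79, and their summed intensity was 17638 on 2D and 11955 on spheroid. The part of such cells, of the epithelial markers and of the lower actin and GAPDH ratios on spheroid was not tested.

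To look for dependence on TRIB1, both arrays labelled with hairpins against it were compared with shGFP. Of the 6 genes above the usable limit on shGFP, ID2, BAMBI, BMP4 and TGFB2 were higher on both hairpin arrays with their main probe sets. That direction was held by 25% of the 10522 genes tested, which reached the limit on any hairpin-line array. Lower on both were 0 of the 6, against 34.7%. For TGFB2 only the main probe set was higher with shTRIB1-2, by 0.13. Its other usable probe sets differed from shGFP there by -0.06 and -0.03. SMAD7 was also higher on both, but it and ID3 passed the limit only through shTRIB1-1, so they are not counted. The group of genes at least 2-fold higher on both arrays, 0.361% of those tested, held none of the 10 genes, and neither did the 0.0855% that were at least 2-fold lower. ID2 differed by 0.80 with shTRIB1-1 and 1.06 with shTRIB1-2, a mean of 0.93 ± 0.18 (SD, n = 2). BAMBI differed by 0.89 and 0.67, a mean of 0.78 ± 0.15 (SD, n = 2). BMP4 differed by 0.47 and 1.13, a mean of 0.80 ± 0.47 (SD, n = 2). For ID2, BAMBI and BMP4 the mean difference was larger than the SD of the 2 hairpin arrays, as it was for SMAD7 (0.79 ± 0.71, SD, n = 2), and it was smaller for TGFB2, ID1, ID3 and SMAD6. That SD leaves out the single shGFP array. Of the G2 and M phase genes, 9 were tested and all 9 were lower on both hairpin arrays. Their median difference from shGFP was -0.48 with shTRIB1-1 and -0.57 with shTRIB1-2. The part of this in the differences of the pathway genes was not tested. Limma gave ID2 an unadjusted p of 0.0384 and BAMBI one of 0.0449, and with Benjamini-Hochberg adjustment over all genes both had an adjusted p of 0.951. At an adjusted p of 0.05 limma called 0 of the 10522 genes, and 356 genes, 3.38%, had an unadjusted p under 0.05. The fit has 1 residual degree of freedom, and on data simulated with this design it recovered 200 of 200 genes changed by 3, with 10 false calls, where all genes had an equal spread, and 0 of 200, with 0 false calls, where the spread was drawn per gene.

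**Figure D3:**
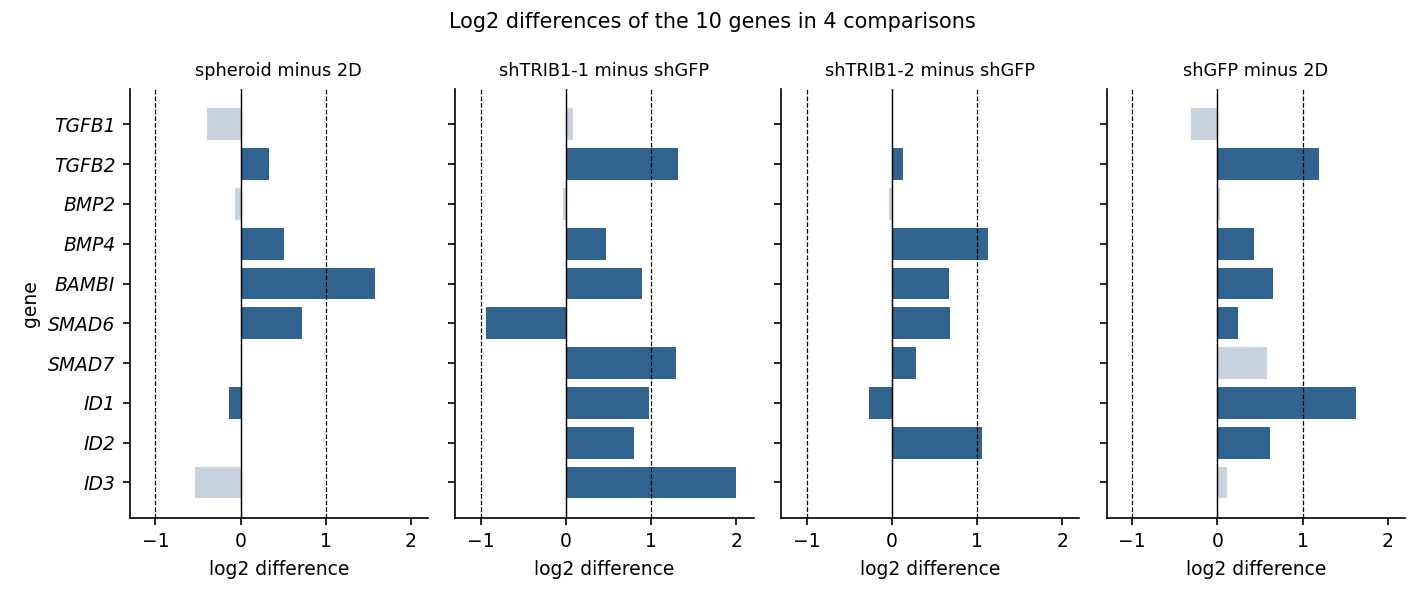
Log2 difference (horizontal axis) of each of the 10 genes (vertical axis) in 4 comparisons of 2 arrays. Each bar is a single difference without a replicate, and dashed lines mark 2-fold. Pale bars mark genes under the usable limit on the compared arrays, or, in the hairpin panels, on all hairpin-line arrays. In the third panel ID3 and SMAD7 are dark through shTRIB1-1 alone, and they are under the limit on both arrays compared there. The hairpin comparisons share the shGFP array with each other and with the last panel, and the first and last panels share the 2D array. BAMBI passes 2-fold in the first panel, ID3, TGFB2 and SMAD7 in the second, ID2 and BMP4 in the third, and ID1 and TGFB2 in the last.

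The arrays of the 2 hairpins gave different values for TGFB2, ID1, ID3, SMAD7 and SMAD6. On the array labelled shTRIB1-1, ID3 (1.99), TGFB2 (1.31) and SMAD7 (1.29) were at least 2-fold above shGFP, and ID1 was 0.97 above it. The corresponding differences on the array labelled shTRIB1-2 were 0.00, 0.13, 0.29 and -0.27. Of all genes tested, 2% were at least 2-fold higher than shGFP with shTRIB1-1 and 1.34% with shTRIB1-2, where ID2 and BMP4 passed that size. None of the 8 genes was at least 2-fold lower with either hairpin, against 1.86% of all genes with shTRIB1-1 and 0.817% with shTRIB1-2. Set directly against each other, the array labelled shTRIB1-1 was higher by 1.99 for ID3, 1.24 for ID1, 1.18 for TGFB2 and 1.00 for SMAD7, 4 of the 8 genes, against 2.04% of 10412 genes tested. It was lower by 1.62 for SMAD6, against 3.07% of genes at least 2-fold lower. ID3 and SMAD7 entered these 8 only through the array on which they were high, so their presence is built into the count. SMAD6 was the 1 gene of the 8 that differed from shGFP by at least 0.5 in opposite directions on the 2 arrays, at -0.94 and 0.68, as did 1.09% of all genes tested. Each hairpin line is 1 array, so whether the lines differ beyond array-to-array spread was not tested.

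Genes known to respond to TGF-beta were compared between the hairpin lines from a list of 19, of which 17 had a probe set. All 17 reached the usable limit on at least 1 of the 2 compared arrays. Of these, 4 were at least 2-fold higher with shTRIB1-1 than with shTRIB1-2, against 2.04% of all genes tested. At least 2-fold lower were 0, against 3.07%. IGFBP3, a carrier of insulin-like growth factors, was at 8.89 on shGFP, 11.90 on shTRIB1-1, 9.54 on shTRIB1-2, 8.87 on 2D and 9.99 on spheroid. TGFBI, a matrix protein named for its induction by TGF-beta, was at 6.23 on shGFP, 7.20 on shTRIB1-1, 5.14 on shTRIB1-2, 7.99 on 2D and 7.18 on spheroid. Of the 2 compared arrays TGFBI reached the limit only on that labelled shTRIB1-1, so its presence is built into the counts of this list. PMEPA1, a membrane protein that limits receptor SMADs, was at 10.60 on shGFP, 12.15 on shTRIB1-1, 10.12 on shTRIB1-2, 11.45 on 2D and 10.02 on spheroid. The cell cycle inhibitor CDKN1A was at 7.40 on shGFP, 9.26 on shTRIB1-1, 7.55 on shTRIB1-2, 7.62 on 2D and 8.94 on spheroid. These 4 share with TGFB2, ID1, ID3 and SMAD7 a higher value with shTRIB1-1 than with either other hairpin-line array, but the 2D array was above shGFP for TGFBI, PMEPA1 and CDKN1A, unlike for TGFB2 and ID1, and IGFBP3 differed by 0.02 between those arrays. The list as a whole had a median difference between the hairpin lines of 0.20, against 0.00 for all genes tested, with 11 higher and 5 lower, and its members ranged from -0.87 to 2.36. At least 1.5-fold different in either direction were 9 of the 17, 7 higher and 2 lower, against 14.6% of all genes tested. SKIL, a repressor of SMAD activity and itself a quick target, went the other way, at -1.09 from shGFP with shTRIB1-1 and -0.21 with shTRIB1-2. The target CCN2 was the other lower one, at -0.27 from shGFP with shTRIB1-1 and 0.38 with shTRIB1-2, and -0.65 between them. The smooth muscle actin ACTA2, a stromal marker that TGF-beta also induces, was at 5.08 on shGFP, 7.07 on shTRIB1-1 and 5.08 on shTRIB1-2. The other stromal markers DCN and PDGFRB were below 6 on every array.

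**Figure D4:**
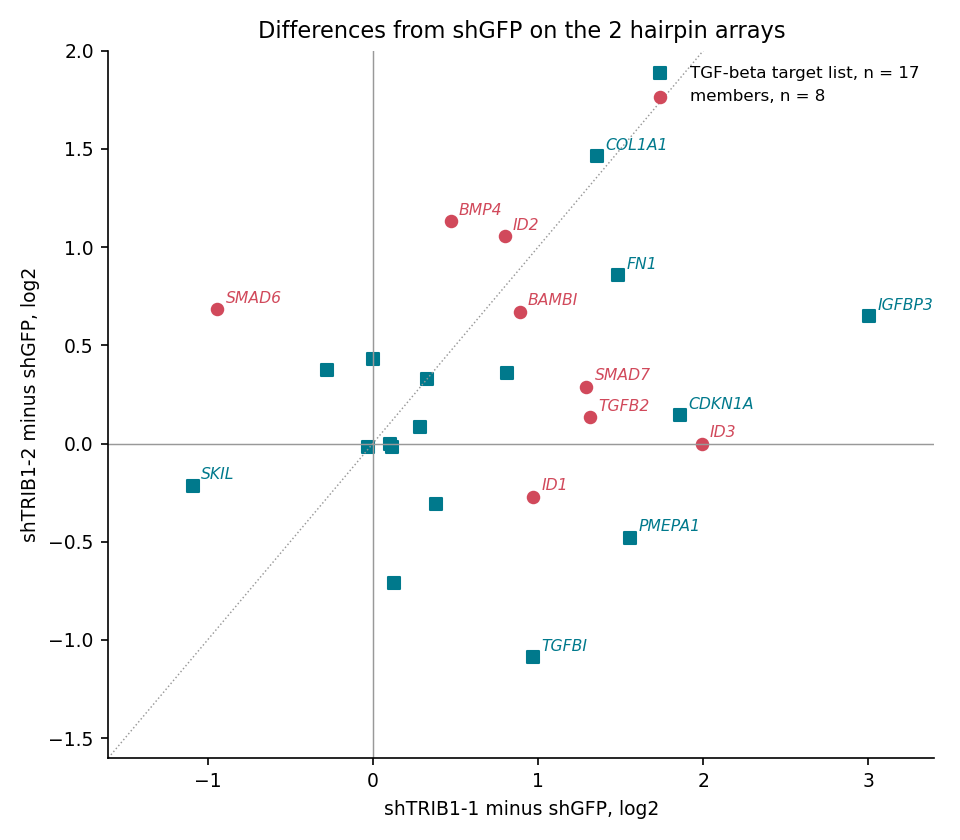
Difference from shGFP with shTRIB1-1 (horizontal axis, log2) and with shTRIB1-2 (vertical axis, log2) for the 8 genes above the usable limit (circles) and the 17 genes of the TGF-beta target list (squares); each point is 1 gene, and both axes subtract the same shGFP array, which alone pulls points toward the dotted line of equal differences. ID2, BAMBI and COL1A1 lie near that line, whereas ID1, ID3, TGFB2, SMAD7, IGFBP3, CDKN1A, PMEPA1 and TGFBI lie far below it. BMP4 lies above the line and SMAD6 further above it.

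The shGFP and 2D arrays, neither with a hairpin against TRIB1, also differed in these genes. ID1 was higher on the shGFP array by 1.63, or 3.09-fold, and TGFB2 by 1.19, or 2.29-fold, among 6 genes above the limit on these arrays, all 6 of them higher on shGFP, as were 48.9% of all genes tested. At least 2-fold higher were 2.13% and at least 2-fold lower 2.11% of 10450 genes tested. BAMBI was higher by 0.65, ID2 by 0.62, BMP4 by 0.43 and SMAD6 by 0.24. SMAD7 and ID3 were under the limit on both arrays. The 10 G2 and M phase genes were all lower on shGFP than on 2D, with a median of -0.71. The part of this in the pathway genes was not tested. Over all 5 arrays, ID1, ID2 and TGFB2, each above the limit on every array, were higher on each of the 3 hairpin-line arrays than on either other array, which was true of 13.8% of 10843 genes. ID3 and SMAD7 had the same order, but they passed the limit only through the array labelled shTRIB1-1 and their other values were under 6, so nothing is read from it. For ID1 the lowest hairpin-line array was still 1.36 above the highest other array, a gap of at least 1 that 0.553% of genes had. These arrays also differ in the actin ratio given above, so the hairpin lines and the set of arrays cannot be told apart. With shGFP and 2D averaged as the control, the spheroid difference was 1.26 for BAMBI, -0.95 for ID1 and -0.26 for TGFB2, the last with its sign turned, and ID2 was at least 2-fold higher on both hairpin arrays.

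The rest of the pathway was followed in lists of genes with a stated role. Among 7 other ligands above the limit, the spheroid array was 1.95 lower for the activin subunit gene INHBB and 1.46 lower for INHBA, and 1.87 higher for the stress-induced ligand GDF15. INHBB was at 11.61 on shGFP, 12.00 on shTRIB1-1, 12.32 on shTRIB1-2, 9.88 on 2D and 7.93 on spheroid, which is another gene with its highest values on the hairpin-line arrays. The activin antagonist follistatin, FST, was at 12.56, 12.82 and 12.69 on the shGFP, shTRIB1-1 and shTRIB1-2 arrays, 11.13 on 2D and 9.17 on spheroid. Both activin subunits and their antagonist were thus lower in the spheroid array, while the 8 measured antagonists and latency proteins had a median of -0.10 there. FSTL1, a secreted follistatin-like protein, was higher on both hairpin arrays by 1.37 and 1.32 and lower in the spheroid array by 1.28. The BMP antagonist noggin, NOG, was at 9.20 on shGFP, 8.36 on shTRIB1-1, 8.26 on shTRIB1-2, 8.89 on 2D and 8.84 on spheroid, lower by 0.84 and 0.95 with the hairpins. TWSG1, which binds BMPs, differed from shGFP by -0.19 and 0.27.

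Receptors included genes that differed in the spheroid array and between the hairpin arrays. Of 12 receptor genes above the limit, 1 was higher in the spheroid array by at least 2-fold, against 5.05% of all genes tested. Lower by that much were 0, against 5.23%. The higher gene was TGFBR3, the co-receptor betaglycan that presents TGF-beta 2, at 7.03 on shGFP, 6.74 on shTRIB1-1, 7.96 on shTRIB1-2, 6.34 on 2D and 8.41 on spheroid. The kinase receptors TGFBR1 and TGFBR2 differed by 0.36 and -0.33 between spheroid and 2D. The BMP receptor BMPR1B took the same order on the hairpin-line arrays as SMAD6, at 8.70 on shGFP, 7.81 on shTRIB1-1 and 9.35 on shTRIB1-2, but was 0.59 lower in the spheroid array. Between the hairpin arrays, 2 of 11 receptors were at least 2-fold lower with shTRIB1-1, BMPR1B at a difference of -1.54 and TGFBR3 at -1.22. At least 2-fold higher were 0. Of all genes tested, 3.07% were lower and 2.04% higher by that much. None of the 5 measured receptor and common SMADs differed 2-fold in either comparison, and their medians were -0.05 in the spheroid array, -0.25 with shTRIB1-1 and 0.04 with shTRIB1-2. SMAD1, which carries BMP signals, differed by -0.74 between spheroid and 2D and SMAD2, which carries TGF-beta signals, by -0.33. Among 11 intracellular restraint genes PMEPA1 was 1.43 lower in the spheroid array, and STRAP, which aids SMAD7 at the receptor, differed by 0.10.

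Target genes in the spheroid array were mixed. Of 17 TGF-beta targets, 4 were at least 2-fold higher and 2 at least 2-fold lower than in 2D, with a median of -0.21. Among all genes tested these shares were 5.05% and 5.23%. The lipase inhibitor ANGPTL4 (2.72), the collagen chain COL1A1 (1.47), CDKN1A (1.32) and IGFBP3 (1.11) were higher, and PMEPA1 (-1.43) and the fibronectin gene FN1 (-1.14) lower. COL1A1 was also the 1 target at least 2-fold higher on both hairpin arrays, at 1.35 and 1.46, against 0.361% of all genes tested. TSC22D1 and KLF10, 2 early targets of TGF-beta, differed by 0.94 and -0.34 in the spheroid array. Of 8 other BMP targets above the limit, RUNX2, a bone transcription factor, was 1.24 higher in the spheroid array and the Notch and BMP target HEY1 0.69 higher. The fourth ID gene, ID4, was between 5.30 and 5.45 on all arrays. Among 8 partners of the ID proteins, the spheroid array was lower by 1.00 for the cyclin-dependent kinase inhibitor gene CDKN2A, by 0.69 for the E protein TCF3 and by 0.48 for HES1. The E protein TCF4 was at 8.17 on shGFP, 6.95 on shTRIB1-1 and 8.30 on shTRIB1-2, low on the array on which ID1 and ID3 were high. The other E proteins did not share this: TCF3 differed from shGFP by -0.03 with shTRIB1-1 and 0.34 with shTRIB1-2, and TCF12 by -0.35 and -0.26. Between shGFP and 2D, TCF4 differed by -0.12 and ID1 by 1.63. PMEPA1, SKIL and LTBP2 stand in 2 lists each.

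The genes with the most similar course over the 5 arrays were found by the root mean square distance between levels, after each gene was centred on its own mean, among 2646 genes above the limit with a range of at least 1. For ID1 they were PDE1C (0.11), PLPP3 (0.17) and IL18 (0.18), and for ID2 they were ZNF704 (0.13), TBX3 (0.15) and CYLD (0.17). ID3 was closest to PLAT (0.15), HMGA2 (0.18) and MYL9 (0.22). SMAD6 had the closest companions, EML6 (0.067), GLRB (0.083) and PTCH1 (0.086). Nearest to SMAD7 were IFFO2 (0.14), PLD1 (0.15) and DUSP10 (0.19), and nearest to TGFB2 were FUT8-AS1 (0.11), IER5L (0.16) and again IFFO2 (0.22). BMP4 was followed by TMEM47 (0.14), LMO4 (0.15) and ZSCAN31 (0.16), and BAMBI by SQSTM1 (0.15), GABARAPL1 (0.16) and FOXO1 (0.16). With 5 arrays such a likeness is a description, and none of these genes was in the lists of the pathway. ID3 and SMAD7 reached the limit only on the array labelled shTRIB1-1, so their likenesses rest mostly on values under it.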

How the data were processed

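Total RNA (100 ng per sample, per the labels' protocols) was labelled with biotin and hybridised to 5 Affymetrix arrays. The authors deposited intensities per probe set that RMA had background-corrected, quantile-normalized and summarised, per the submitters' processing notes. The values themselves show that they are linear. No source used here gives the RMA version or the chip definition file. Quantile normalization hides any shift shared by most genes. Arrays have no depth, and their number limits the precision. Log2 was taken with no pseudocount.

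Names came from the platform annotation. Of 54675 probe sets, 41091 carried 1 symbol, 1801 several and 11783 none, controls included. RefSeq (GRCh38.p14) matched 41037 by Entrez identifier and updated 0 symbols. A gene was read from its probe set of highest mean level (the main probe set) and compared where any compared array reached a level of 6. For the hairpins against shGFP, any hairpin-line array counted for this. Spheroid against 2D, shGFP against 2D and hairpin against hairpin were differences of 1 array each, without a test. The hairpins were set against shGFP by limma 3.58.1 (R 4.3.3) with a trend on intensity and p-values adjusted by Benjamini-Hochberg. On simulated data with an equal spread for all genes it recovered 200 of 200 genes changed by 3, and with a spread drawn per gene 0 of 200. The p-values of the main fit rest only on the spread between the arrays of the 2 different hairpins against TRIB1. That spread may be technical or come from the hairpins, and the single shGFP array adds nothing to it.

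The 10 genes and the lists were chosen with earlier results of these data known. Named were the 10 genes, genes of each list at least 2-fold different between spheroid and 2D or on both hairpin arrays, the 2 genes of each list with the highest mean level and the 3 nearest genes in pattern. TGFB3, TGFBI, SKIL, CCN2, NOG, BMPR1B, SMAD2, TCF4, TCF12, ACTA2 and ID4 were added after their values were seen. The alternatives were other probe sets, filters, scaling, control and fold, and limma without trend or on all probe sets.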

Additional observations from a re-analysis of the deposited data

Results flagged for a closer look

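SMAD6, BMPR1B and TGFBI differed from shGFP by at least 0.5 in opposite directions on the 2 hairpin arrays. The array labelled shTRIB1-1 minus that labelled shTRIB1-2 was -1.62 for SMAD6 (-0.94 and 0.68 from shGFP), -1.54 for BMPR1B (-0.89 and 0.65) and 2.06 for TGFBI (0.97 and -1.09). TGFBI was under the usable limit on the array labelled shTRIB1-2, at 5.14. The difference between the hairpins was not tested, because each is 1 array.

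A probe set that carries the symbols of both ID2 and its relative ID2B was left out of the comparisons. It was at 4.93 on shGFP, 6.61 on shTRIB1-1, 5.39 on shTRIB1-2, 4.37 on 2D and 5.29 on spheroid, and so lay 1.68 above shGFP with shTRIB1-1 and 0.46 above it with shTRIB1-2. Its highest array is not that of the ID2 probe sets, which were highest with shTRIB1-2.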

How the results depend on the processing

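BAMBI has 1 probe set, so the alternatives of probe set and filter could not change its difference of 1.58 between spheroid and 2D. The difference was 1.63 with the arrays shifted to the same median and 1.26 with shGFP and 2D averaged as the control. Limma called 0 genes under each alternative, with 182 to 1616 genes at an unadjusted p under 0.05. The adjusted p of the 8 tested genes lay between 0.618 and 1. Other values depended on the settings. With a filter of 8, 23 of 6522 genes were higher on both hairpin arrays. In the spheroid array 330 were higher, 182 were lower with shTRIB1-1 than with shTRIB1-2 and 127 lower on shGFP than on 2D. Only ID1, ID2, SMAD6, TGFB2 and BAMBI were then above the filter between the hairpins. Of these, 2 were at least 2-fold higher with shTRIB1-1 than with shTRIB1-2, since ID3 and SMAD7 dropped out. Without probe sets ending in _s_at or _x_at, only SMAD7, TGFB2 and BAMBI were above the limit between the hairpins. With shTRIB1-1, 2 were at least 2-fold higher and 0 at least 2-fold lower. Between shGFP and 2D only TGFB2 and BAMBI were above the limit, with 1 at least 2-fold higher on shGFP. The probe sets of ID1, ID2, ID3 and BMP4 and the usable SMAD6 probe set end so. As the median of all probe sets, SMAD6 was not tested and 0 of the remaining genes above the limit were at least 2-fold lower with shTRIB1-1. BMP4 (-0.66) and ID2 (-0.29) were lower by less. Among all genes 188 were then at least 2-fold lower with shTRIB1-1 and 145 at least 2-fold higher on shGFP than on 2D. Of 8540 tested against shGFP, 20 were at least 2-fold higher and 4 at least 2-fold lower on both hairpin arrays. The other counts of all genes with these choices are given without the number tested, so they are not shares. The median of the TGF-beta targets between shGFP and 2D was 0.41 with that choice and 0.69 with the filter of 8, against 0.02. With shGFP and 2D averaged as the control, 82 of 10522 genes were higher and 22 lower on both hairpin arrays, 1 of the 8 tested genes (ID2) among the higher. At 1.5-fold, 1296 of 10570 genes were higher and 1368 lower in the spheroid array. With shTRIB1-1 against shTRIB1-2, 652 and 863 of 10412 were, and on shGFP against 2D 678 and 753 of 10450. On both hairpin arrays 186 and 101 of 10522 were. Of the 6 pathway genes above the limit in each of those comparisons, 2 were then higher in the spheroid array and 4 on shGFP. Of the 8 above it on the hairpin arrays, 2 were at least 1.5-fold lower with shTRIB1-1 than with shTRIB1-2. At least 1.5-fold higher on both hairpin arrays were 2 of the 8 tested against shGFP. With either hairpin left out, as a value with no test, the difference from shGFP ranged from -0.27 to 0.97 for ID1 and from -0.94 to 0.68 for SMAD6, so their direction depends on the hairpin. Alternatives for the comparisons of the hairpins with each other and of shGFP with 2D were chosen after seeing the data. No paired analysis was possible because the groups share fewer than 2 replicate numbers.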
